A study of Mus musculus with 18 samples.

Results

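Mouse proteases, the lysosomal cathepsins and the inhibitors that hold such enzymes in check were followed by symbol across an androgen experiment in 3 exocrine glands. Members were the array probes whose gene symbol begins with the names of the serpins, Kazal and Kunitz inhibitors, cystatins and stefins, and WAP domain proteins, or with those of the cathepsins, tissue kallikreins, Prss, Tmprss and Cela proteases, ADAM and ADAMTS metalloproteases, carboxypeptidases, plasminogen activators, proprotein convertases and dipeptidyl peptidases. Serpinb6a and Klk1b5 were left out. This gave 135 probes for 133 genes, of 10500 probes on the array, and only Adam10 and Dpp8 had 2 probes each. The name pattern also took in Cstf1, Cstf2 and Cstf2t, which encode subunits of the cleavage stimulation factor that trims messenger RNA ends and are neither proteases nor inhibitors, so they are described apart.

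All mice were orchiectomised male BALB/c animals that carried a hormone pellet for 21 days. The pellets held testosterone in one arm and placebo in the other, and no gonad-intact animals were compared. There were 6 groups, namely testosterone and placebo lacrimal glands, testosterone and placebo meibomian glands, and testosterone and placebo submandibular glands. Each group had 3 arrays, A, B and C, each from a separate pool of 5 animals (10 glands). Elsewhere the labels put the number at 4 mice for either sex in an experiment.

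Many proteases are made as inactive precursors, and cofactors and inhibitors limit where they act. Serpins trap a target protease in a 1-to-1 dead-end complex, cystatins and stefins block cathepsins, and Kunitz and WAP domain proteins block serine proteases. Proprotein convertases such as furin activate secreted precursors in the trans-Golgi network, cathepsins digest proteins in lysosomes, and kallikreins are secreted into saliva and shed skin. In rodents the submandibular gland is known for androgen-dependent secretion of kallikreins and growth factors, and the lacrimal gland for sex-dependent size and secretion.

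Values are the authors' array intensities, with medians of 0.929 to 0.952 on all 18 arrays and no stated unit, so 1 probe is compared with itself only. The highest intensity on an array was 134.6 to 219.1 in meibomian glands, against 597.5 to 1042 in the others. Of the 135 probes, 82 (80 genes) passed the filter on dim probes (above the 40th percentile of the array on at least 3 arrays) and were tested. Another 52 were dim, with a highest group mean of 0.267 to 0.767, among them the remaining alpha-1-antitrypsin copies Serpina1c, Serpina1e and Serpina1f, the antithrombin gene Serpinc1, the pancreatic trypsin inhibitor Spink1 and the urokinase receptor Plaur. The kallikrein Klk1b24 held the no-value code on all 12 lacrimal and submandibular arrays and was not tested. Some single pools stood far from their group: 326 of 7463 tested probes (4.37%) had 1 pool over 4-fold from 2 others that lay within 1.5-fold of each other. Submandibular testosterone pools C and A held 97 and 92 of these, and submandibular placebo pools C and A held 49 and 33. Of the tested members 6 were affected, which a later paragraph takes up.

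Sebaceous and submandibular gland markers followed the labels. The summed sebaceous markers read 506 to 768 in meibomian pools and 13.8 to 34.7 in the others, and the submandibular markers read 289 to 762 in submandibular, 22.2 to 135 in lacrimal and 2.66 to 3.78 in meibomian pools. Lacrimal secretion markers were high in both lacrimal pools (951 to 1773) and submandibular pools (897 to 1138), and these ranges overlapped. Meibomian pools also held muscle and skin: skeletal muscle markers summed to 275 to 370 there against 9.35 to 25.4 elsewhere, and keratinocyte markers to 403 to 476 against 8.69 to 35.6. In such bulk pools, fewer cells of a type and less RNA per cell cannot be told apart.

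Testosterone altered members in the lacrimal and submandibular glands, and none passed the test in the meibomian gland. The test took 1 spread per probe for all 6 groups, so each gland's SE also carries the spread of the other glands. That spread was unequal: the median SD of tested probes on the log2 scale was 0.092 in placebo and 0.149 in testosterone meibomian pools. In the other groups it was 0.186 to 0.204. In the lacrimal gland 26 of 82 tested members were called at an adjusted p under 0.05 in limma (11 higher and 15 lower, 31.7%), against 28.1% of all 7463 tested probes. In the submandibular gland 15 were called (13 higher and 2 lower, 18.3%), against 13.8% of all probes. The share of members called higher there was 15.9% and the share called lower 2.44%, against 8.54% and 5.25% of all probes. In the lacrimal gland 13.4% of members were called higher and 18.3% lower, against 13.3% and 14.8% of all probes. In all, 36 members were called in at least 1 gland and 46 in none. Median changes of the 82 members were -0.07, 0.07 and -0.01 on the log2 scale in lacrimal, meibomian and submandibular glands, close to -0.07, 0.06 and 0.01 over all tested probes. All changes below are testosterone minus placebo on log2(intensity + 0.174), a scale that shrinks the change of dim probes.

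**Figure D1:**
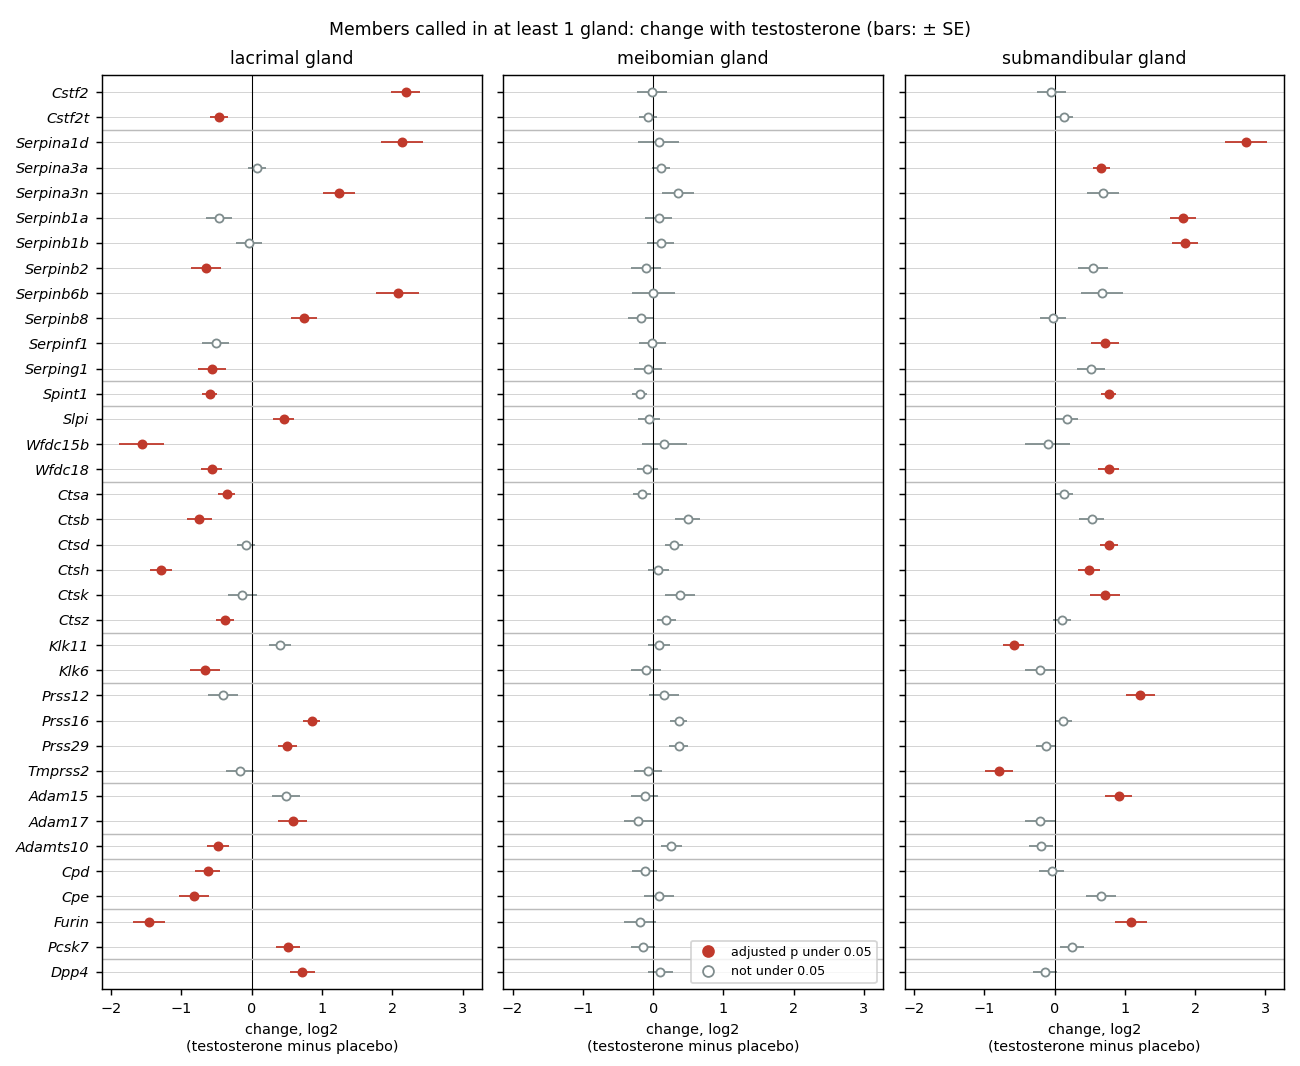
Change with testosterone, as testosterone minus placebo on log2(intensity + 0.174), for the 36 members called in at least 1 gland, with bars of ± SE, filled points at an adjusted p under 0.05 and grey lines between families. Lacrimal points spread to both sides (11 called higher, 15 lower), submandibular calls lie mostly to the right (13 higher, 2 lower), and no meibomian point is filled.

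Among the serpins, 4 of 19 tested rose and 2 fell in the lacrimal gland, and 5 rose and none fell in the submandibular gland. Over all probes, 13.3% were called higher and 14.8% lower in the lacrimal gland, and 8.54% and 5.25% in the submandibular gland. Serpina1d, a copy of the elastase inhibitor alpha-1-antitrypsin, was the 1 of 82 members that rose in 2 or more glands (2.01% of all probes did). None fell in 2 or more (1.39% of all probes did). It read 2.32, 1.88 and 2.27 in testosterone lacrimal pools, against 0.311, 0.331 and 0.430 in placebo lacrimal pools. In submandibular glands it read 3.36, 2.72 and 3.94 in testosterone pools, against 0.633, 0.478 and 0.102 in placebo pools. No testosterone pool overlapped a placebo pool in either gland, and the ratios of mean intensities were 6.04 and 8.27. The log2 changes were 2.14 ± 0.30 (SE, adjusted p = 3.78e-05, limma) and 2.73 ± 0.30 (adjusted p = 8.2e-06). In meibomian glands it read 1.003, 0.552 and 0.615 with testosterone and 0.625, 0.761 and 0.595 with placebo, and these pools overlapped. The lacrimal change exceeded the meibomian one by 2.06 ± 0.42 (adjusted p = 0.00247). The probe of the near-identical copy Serpina1b was called in no gland, with a submandibular change of 0.40 ± 0.36, and cross-hybridisation between such copies cannot be judged from these data.

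Serpina3n, an antichymotrypsin-like inhibitor of serine proteases, rose in the lacrimal gland. It read 1.29, 1.10 and 0.841 with testosterone, against 0.398, 0.513 and 0.192 with placebo, a change of 1.24 ± 0.23 (adjusted p = 0.000599). The submandibular pools also did not overlap (1.06, 0.659 and 0.703 with testosterone, against 0.424, 0.361 and 0.494 with placebo), but the change of 0.69 ± 0.23 missed the threshold (adjusted p = 0.0563) and passed it once discordant single values were left out (adjusted p = 0.0448). Its neighbour Serpina3a showed calls the other way round. It rose in the submandibular gland by 0.67 ± 0.13 (4.99 ± 0.336 with testosterone and 3.10 ± 0.474 with placebo, SD, n = 3 each, adjusted p = 0.00196, and 0.0531 in a fit to submandibular arrays alone), and its lacrimal change was 0.07 ± 0.13. Serpina1d, Serpina3a and Serpina3n lie in 1 run of serpin genes, where 10 members of the set fall within 22 neighbouring protein-coding genes.

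Promoters are shown for 3 serpins that rose: Serpina1d because it rose in both glands, its neighbour Serpina3n because it rose in lacrimal glands, and Serpinb1b because it had the lowest p of the submandibular members. They are the 250 bases before the RefSeq gene start (GRCm38.p6), 5′ to 3′ on the gene's strand, with capitals for matches to 2 androgen-receptor motifs, the half-site AGAACA and a palindrome (GNACA, any 3 bases, then TGTNC), searched on both strands.
Serpina1d (chr12:103773634-103773883, minus strand): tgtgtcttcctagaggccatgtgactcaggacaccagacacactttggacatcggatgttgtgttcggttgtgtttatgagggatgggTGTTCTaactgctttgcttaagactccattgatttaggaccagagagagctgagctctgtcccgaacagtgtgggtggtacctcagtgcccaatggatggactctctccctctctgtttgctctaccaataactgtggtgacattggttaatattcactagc
Serpina3n (chr12:104406458-104406707, plus strand): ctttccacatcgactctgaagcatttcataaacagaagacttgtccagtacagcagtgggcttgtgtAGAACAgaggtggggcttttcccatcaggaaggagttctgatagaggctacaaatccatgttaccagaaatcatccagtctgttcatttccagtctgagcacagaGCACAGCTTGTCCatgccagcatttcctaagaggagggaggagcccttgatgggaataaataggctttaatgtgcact
Serpinb1b (chr13:33083853-33084102, plus strand): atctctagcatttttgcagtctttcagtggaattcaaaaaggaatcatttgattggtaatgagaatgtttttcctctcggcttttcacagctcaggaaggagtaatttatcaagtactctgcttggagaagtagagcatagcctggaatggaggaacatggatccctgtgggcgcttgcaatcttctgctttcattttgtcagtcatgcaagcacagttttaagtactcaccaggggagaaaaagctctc
The half-site matched once in Serpina1d and once in Serpina3n, the palindrome matched once in Serpina3n, and neither matched in Serpinb1b. The half-site was in 23.4% of the 111 promoters of 100 member genes, and in 16.1% of all 32851 promoters. For the palindrome these shares were 0.901% and 0.387%, so that Serpina3n was the one match among members. A match describes letters and not a binding site.

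Of the 8 tested clade B serpins, which act inside cells, 5 differed between glands in their testosterone change by the F test. Over all probes 27.7% did. Serpinb2, among the 5, was dim in lacrimal and submandibular glands. Serpinb3a, Serpinb9 and Serpinb9c did not differ. Serpinb1a, which blocks neutrophil elastase and related granule proteases, read 65.8, 46.3 and 63.0 in testosterone submandibular pools, against 20.0, 17.0 and 12.4 in placebo pools. Its paralog Serpinb1b read 37.0, 26.7 and 35.6 with testosterone, against 10.9, 8.12 and 7.92 with placebo. Every testosterone pool was above every placebo pool for both genes. The changes were 1.82 ± 0.19 (adjusted p = 4.36e-06) for Serpinb1a and 1.86 ± 0.19 (adjusted p = 3.07e-06) for Serpinb1b. In lacrimal glands both probes were dim: Serpinb1a read 0.367 to 0.551 with testosterone and 0.551 to 0.877 with placebo, and Serpinb1b 0.297 to 0.527 and 0.373 to 0.557. In meibomian glands both were well measured and overlapped between treatments, with changes of 0.08 ± 0.19 and 0.10 ± 0.19. The submandibular changes exceeded the meibomian ones by 1.74 ± 0.27 for Serpinb1a (adjusted p = 0.000599) and 1.76 ± 0.26 for Serpinb1b (adjusted p = 0.000505). The 2 paralogs may share probe signal.

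Serpinb6b, another clade B serpin, read 4.66, 3.35 and 3.73 in testosterone lacrimal pools, against 0.975, 0.792 and 0.627 in placebo lacrimal pools. The groups lay well apart, with a change of 2.08 ± 0.30 (adjusted p = 6.65e-05). Its submandibular pools were uneven with testosterone (8.83, 21.5 and 31.8) and close with placebo (12.2, 11.1 and 10.9), and there the change of 0.67 ± 0.30 was not called. Serpinb1a, Serpinb6b and Serpinb1b lie in 1 run, with Serpinb9, Serpinb9c and Serpinb9e, within 9 neighbouring protein-coding genes. Serpinb9, which blocks granzyme B, was not called in any gland, with changes of 0.10 ± 0.28, 0.12 ± 0.28 and 0.26 ± 0.28 in lacrimal, meibomian and submandibular glands. Serpinb9c was not called either, and Serpinb9e was dim.

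**Figure D2:**
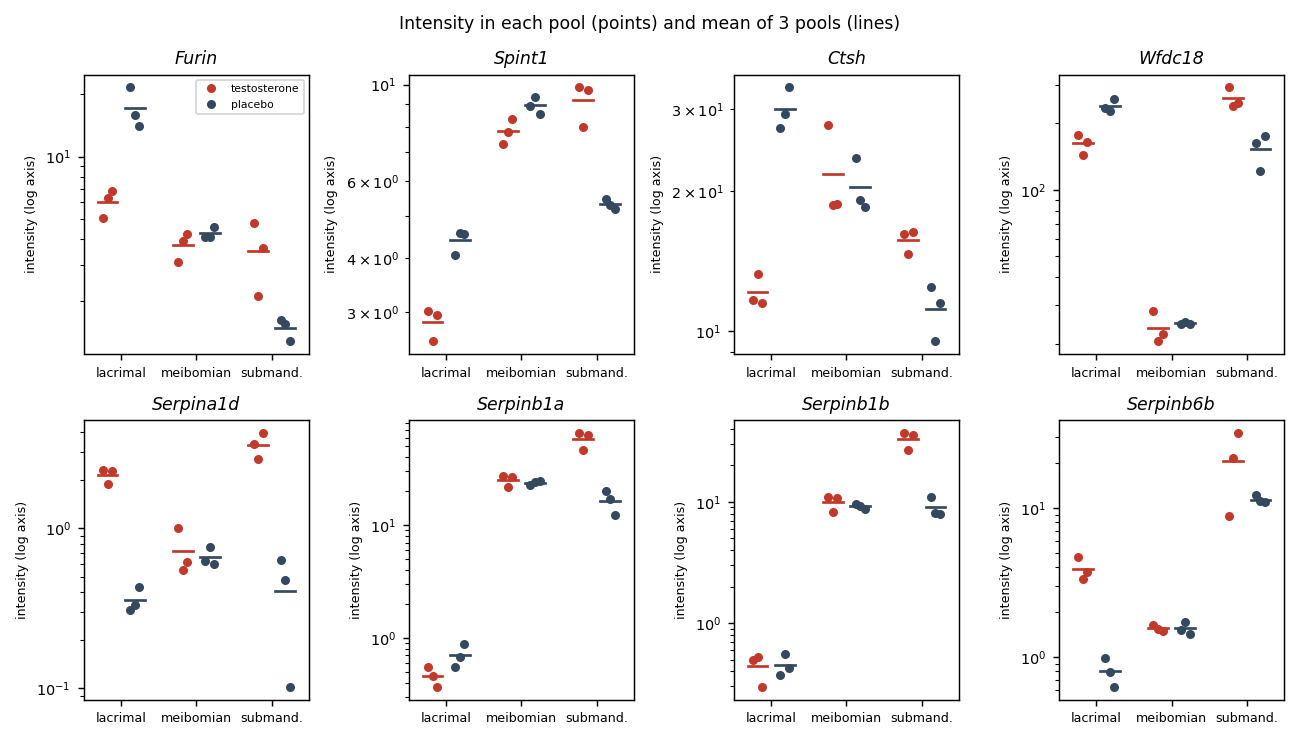
Intensity of 8 members in each pool (points, log axis) and the mean of 3 pools (lines), testosterone left of placebo within each gland. Furin, Spint1, Ctsh and Wfdc18 lie lower with testosterone in lacrimal glands and higher in submandibular glands, Serpina1d lies higher in both, Serpinb1a and Serpinb1b in submandibular and Serpinb6b in lacrimal glands.

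Weaker serpin changes went both ways. Serpinb8, whose human counterpart can inhibit furin, rose in the lacrimal gland (1.12 ± 0.237 with testosterone and 0.595 ± 0.139 with placebo, SD, n = 3 each, a change of 0.75 ± 0.19, adjusted p = 0.00611). Serping1, the C1 inhibitor of the complement cascade, fell there by 0.57 on the log2 scale (adjusted p = 0.0411). That call ended without placebo pool A or B or testosterone pool A or C (adjusted p up to 0.145). Serpinb2, an inhibitor of urokinase, entered the test through its meibomian level and lay under the 40th percentile of every lacrimal array. Its fitted lacrimal change was -0.65 (adjusted p = 0.0341), a call that ended without placebo pool B or C or testosterone pool A (adjusted p up to 0.134) and with quantile normalization. Serpinf1, known as pigment epithelium-derived factor and not an active inhibitor, rose in the submandibular gland by 0.72 ± 0.20 (2.21 ± 0.503 with testosterone and 1.27 ± 0.244 with placebo, adjusted p = 0.022). Without placebo pool B or testosterone pool B that call ended (adjusted p up to 0.0994).

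Furin, Spint1, Ctsh and Wfdc18 were called in opposite directions, lower in the lacrimal gland and higher in the submandibular gland. Such opposite calls were made for 4 of 82 tested members and for 181 of 7463 probes (2.43%). Furin, the proprotein convertase, read 5.05, 6.27 and 6.82 in testosterone lacrimal pools, against 21.6, 15.9 and 14.0 in placebo lacrimal pools. In submandibular glands it read 4.75, 2.13 and 3.60 in testosterone pools, against 1.62, 1.54 and 1.28 in placebo pools. Neither gland's groups overlapped, with testosterone pools below all placebo pools in the lacrimal gland and above them in the submandibular gland. The changes were -1.47 ± 0.23 (adjusted p = 0.000118) and 1.08 ± 0.23 (adjusted p = 0.00426), and they differed by -2.55 ± 0.32 (lacrimal minus submandibular, adjusted p = 2.12e-05). The submandibular call ended in a fit to the submandibular arrays alone and without both pools C.

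Spint1, the Kunitz-type membrane inhibitor of matriptase and hepatocyte growth factor activator, had the lowest p of all members for a difference between glands. It read 3.02, 2.57 and 2.95 in testosterone lacrimal pools, against 4.05, 4.56 and 4.54 in placebo lacrimal pools. In submandibular glands it read 9.86, 7.9996 and 9.72 in testosterone pools, against 5.45, 5.27 and 5.19 in placebo pools. The pools did not overlap in either gland. The changes were -0.60 ± 0.11 (adjusted p = 0.000481) and 0.77 ± 0.11 (adjusted p = 0.000125), with a difference of -1.36 ± 0.15 (adjusted p = 5.29e-06).

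Wfdc18, a small secreted WAP domain inhibitor, read 178, 144 and 165 in testosterone lacrimal pools, against 235, 229 and 259 in placebo lacrimal pools. In submandibular glands it read 292, 240 and 248 in testosterone pools, against 163, 121 and 176 in placebo pools. Both pairs of groups were apart, with changes of -0.57 ± 0.15 (adjusted p = 0.00929) and 0.77 ± 0.15 (adjusted p = 0.00252). The lacrimal call ended with quantile normalization of all arrays (adjusted p = 0.305). Of the other WAP proteins, Wfdc15b fell in the lacrimal gland, reading 5.71, 1.46 and 4.83 with testosterone against 12.6, 9.81 and 9.65 with placebo. Its change was -1.57 ± 0.32 (adjusted p = 0.0014) and -0.99 without testosterone pool B, the lowest of the 3. In submandibular glands Wfdc15b read 53.9 ± 8.68 with testosterone and 57.6 ± 7.20 with placebo (SD, n = 3 each). Slpi, the secretory leukocyte protease inhibitor, rose in the lacrimal gland by 0.45 ± 0.15 (adjusted p = 0.0374), and this call ended when any pool but testosterone B was left out (adjusted p up to 0.19).

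Of 12 tested cathepsins, 4 fell and none rose in lacrimal glands, where 14.8% of all probes were called lower and 13.3% higher. In submandibular glands 3 rose and none fell, where 8.54% of all probes were called higher and 5.25% lower. Ctsh, a lysosomal aminopeptidase, read 11.7, 13.2 and 11.5 in testosterone lacrimal pools, against 27.3, 29.2 and 33.4 in placebo lacrimal pools. Its submandibular values were 16.1, 14.6 and 16.3 with testosterone, against 12.4, 9.49 and 11.5 with placebo. The lacrimal groups lay more than 2-fold apart and the submandibular ones lay close without overlap. The changes were -1.29 ± 0.16 (adjusted p = 7.85e-06) and 0.49 ± 0.16 (adjusted p = 0.0444), with a difference of -1.78 ± 0.22 (adjusted p = 1.61e-05). Only the submandibular call was fragile: it ended without placebo pool B or C or any 1 testosterone pool (adjusted p up to 0.173) and with quantile normalization.

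Ctsb, a lysosomal cysteine protease, read 2.31, 2.03 and 1.35 in testosterone lacrimal pools, against 3.13, 3.24 and 3.30 in placebo lacrimal pools, and fell by 0.74 (adjusted p = 0.00521). Its changes in the other glands were 0.49 ± 0.18 (meibomian, adjusted p = 0.24) and 0.53 ± 0.18 (submandibular, adjusted p = 0.0644), and the lacrimal change was lower than both, by -1.24 ± 0.25 (adjusted p = 0.00264) and -1.27 ± 0.25 (adjusted p = 0.00162). The carboxypeptidases Ctsz (9.60 ± 0.356 with testosterone and 12.6 ± 1.09 with placebo) and Ctsa (2.55 ± 0.328 and 3.31 ± 0.178) fell in the lacrimal gland with adjusted p of 0.0355 and 0.0446. Either call ended on leaving out any of 5 of the 6 lacrimal pools (placebo A apart for Ctsz and testosterone C apart for Ctsa), with an adjusted p of up to 0.117 and 0.163.

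Ctsd, the lysosomal aspartic protease, rose in the submandibular gland and read 51.1, 48.3 and 60.3 with testosterone, against 30.7, 32.0 and 29.7 with placebo. The lowest testosterone pool was well above the highest placebo pool, and the change was 0.78 ± 0.13 (adjusted p = 0.000572). In lacrimal glands it read 28.1 ± 2.75 with testosterone and 29.8 ± 2.81 with placebo (SD, n = 3 each), and the submandibular change was larger (difference -0.86 ± 0.18, lacrimal minus submandibular, adjusted p = 0.00235). Ctsk, which digests collagen in bone, was dim and rose in the submandibular gland by 0.71 ± 0.21 (adjusted p = 0.0334), a call that ended without placebo pool A or B or testosterone pool B or C (adjusted p up to 0.109). Markers of other cells moved in the same pools, in both directions. Of 12 fibroblast and matrix markers, 8 rose in submandibular pools (sums of 109 to 118 with testosterone and 67.6 to 76.5 with placebo), as did 6 of 7 smooth muscle and myoepithelial markers (139 to 159 and 62.1 to 74.0) and 5 of 14 macrophage markers (123 to 125 and 100 to 110). Falls were called for 4 of 15 skeletal muscle markers (9.35 to 11.4 and 12.4 to 25.4) and 2 of 5 adipocyte markers (66.6 to 71.0 and 77.7 to 181). None of these markers averaged under 0.174 in submandibular pools, a level below the 10th percentile of those arrays (0.211 to 0.243). Called skeletal muscle markers were partly dim, against a 40th percentile of 0.560 to 0.600. With testosterone and placebo, Tnnt3 averaged 0.299 and 0.547, Pvalb 0.254 and 1.04, Ckm 0.380 and 0.819, and Atp2a1 0.883 and 3.56. The part of these markers in the cathepsin and serpin changes was not tested.

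Other lysosomal genes were also called in both glands. Of 29 tested lysosomal enzymes and membrane proteins that are not cathepsins, 11 fell and 1 rose in the lacrimal gland, with a median change of -0.28, against 14.8% lower and 13.3% higher calls over all probes. The largest falls were in Arsa, which removes sulfate from sulfatides (5.41 ± 1.41 with testosterone and 18.7 ± 3.77 with placebo, change -1.77 ± 0.18), and in the acid phosphatase Acp5 (-0.90 ± 0.13). Acp2, another lysosomal acid phosphatase, rose by 0.70 ± 0.18. In the submandibular gland 2 rose and 2 fell, with a median change of 0.05. The alpha-mannosidase Man2b1 rose to 21.7 ± 2.25 with testosterone, against 7.72 ± 1.27 with placebo (change 1.48 ± 0.15), and the membrane protein Lamp2 rose by 0.98 ± 0.16. Arsa and the sphingomyelinase Smpd1 fell there by 0.57 and 0.52. These gene directions held under quantile normalization and with all arrays at a common median.

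Cystatins and stefins, the inhibitors of cathepsins, gave no call in any gland among 4 tested probes. Cst3 (cystatin C, the main secreted cathepsin inhibitor) read 71.9, 74.7 and 79.2 in testosterone submandibular pools, against 63.1, 53.4 and 14.2 in placebo pools. The placebo pools spread more than the treatments differed on average, and the change of 1.04 ± 0.36 missed the threshold (adjusted p = 0.0675). Without placebo pool C it was 0.37, and without discordant values elsewhere it stayed 1.04 with an adjusted p of 0.0431. Stfa3, a stefin, was not called in any gland, with changes of 0.13 ± 0.20, -0.01 ± 0.20 and -0.05 ± 0.20 in lacrimal, meibomian and submandibular glands. It was dim in lacrimal and submandibular glands and was tested because of its meibomian level, so a lack of change was measured only in meibomian glands.

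The probes of 3 cathepsins and 1 serpin were set by 1 submandibular pool and were picked out after their values were seen. Ctsl, a lysosomal cysteine protease, read 7.80, 9.38 and 8.37 with testosterone, against 12.9, 10.1 and 0.340 with placebo. Ctsc, which activates granule proteases, read 3.82, 3.93 and 4.10 with testosterone, against 8.36, 7.47 and 0.927 with placebo. Ctss read 14.0, 10.7 and 0.316 with testosterone, against 13.01, 10.8 and 9.92 with placebo. Serpini2, a pancreas serpin, read 0.414, 0.236 and 0.321 with testosterone, against 0.288, 0.366 and 78.2 with placebo. In each case 1 pool C lay over 4-fold from the 2 other pools of its group. With all values, no change was called in the submandibular gland: 1.08 ± 0.77 for Ctsl, -0.01 ± 0.50 for Ctsc, -1.43 ± 0.79 for Ctss and -2.45 ± 1.23 for Serpini2. With the single values left out, Ctsl turned to -0.42 ± 0.18 (adjusted p = 0.139), Ctss to 0.13 ± 0.17 (adjusted p = 0.687) and Serpini2 to -0.02 ± 0.19 (adjusted p = 0.965). Ctsc then fell in both glands, by 0.97 in submandibular (adjusted p = 0.000123) and by 0.69 in lacrimal glands (adjusted p = 0.000463). Serpini2 also fell in the lacrimal gland in that fit, by 0.53 (adjusted p = 0.0253). The lacrimal values of Ctsc, 20.8, 24.5 and 28.9 with testosterone against 40.4, 35.7 and 42.9 with placebo, did not overlap. The other 2 affected members, Cela3b and Tmprss6, had 1 high testosterone pool in the meibomian gland (2.81 in pool C and 2.15 in pool A). The cause of these values was not tested.

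**Figure D3:**
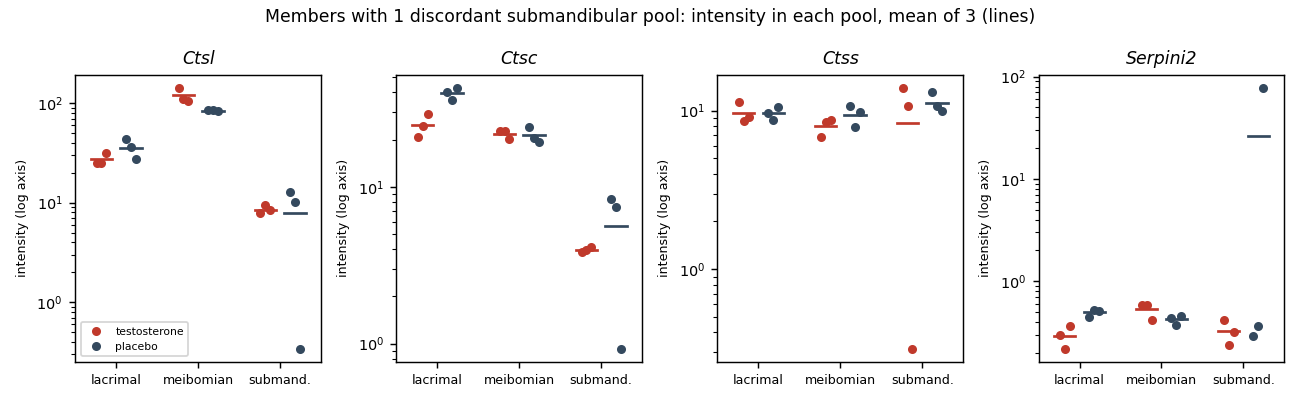
Intensity of Ctsl, Ctsc, Ctss and Serpini2 in each pool (points, log axis) with the mean of 3 pools (lines), testosterone left of placebo. In submandibular glands 1 pool C of each gene lies apart: 0.340, 0.927 and 78.2 in the placebo pool for Ctsl, Ctsc and Serpini2, and 0.316 in the testosterone pool for Ctss.

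Trypsin-like serine proteases were called in both directions. Prss16, a thymic serine protease, rose in the lacrimal gland and read 2.61, 2.38 and 2.39 with testosterone, against 1.10, 1.24 and 1.54 with placebo (change 0.85 ± 0.12, adjusted p = 5.46e-05). Its pools did not overlap. Prss29, named for its role at embryo implantation, rose there by 0.51 ± 0.13 (adjusted p = 0.00962, and 0.0697 in a fit to lacrimal arrays alone). Prss12 (neurotrypsin, which cleaves agrin) rose in the submandibular gland and read 1.03, 0.863 and 1.60 with testosterone, against 0.250, 0.477 and 0.458 with placebo (change 1.22 ± 0.21, adjusted p = 0.000844). The submandibular falls were in Tmprss2 and Klk11. Tmprss2, a membrane protease known as an androgen target in human prostate, read 1.12, 1.74 and 1.34 with testosterone, against 2.43, 2.37 and 2.73 with placebo. It fell by 0.79 (adjusted p = 0.0136), and the call ended without placebo pool C or testosterone pool A (adjusted p up to 0.0645). Klk11, a tissue kallikrein, read 3.32, 3.06 and 2.95 with testosterone, against 5.35, 4.35 and 4.60 with placebo. It fell by 0.58 (adjusted p = 0.0197), and this call ended without placebo pool A or testosterone pool C (adjusted p up to 0.0612). Its lacrimal change was 0.40 ± 0.16, and the 2 differed by 0.98 ± 0.22 (adjusted p = 0.00387). Klk6 entered the test through its meibomian level and lay under the 40th percentile of every lacrimal array, where its fitted change was -0.67 (adjusted p = 0.0277), a call that ended without placebo pool B or C or testosterone pool B or C (adjusted p up to 0.106).

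Of 4 tested carboxypeptidases, Cpe and Cpd fell in the lacrimal gland, where 14.8% of all probes were called lower and 13.3% higher. Cpe, the carboxypeptidase that trims prohormones, read 0.924, 0.445 and 0.330 with testosterone, against 0.941, 1.15 and 1.09 with placebo. It fell by 0.82 (adjusted p = 0.00868), and the adjusted p was 0.054 without testosterone pool C and 0.0536 in a fit to lacrimal arrays alone. In submandibular glands Cpe read 3.92, 4.16 and 4.25 with testosterone, against 2.48, 2.23 and 2.96 with placebo. Those groups did not overlap, yet the change of 0.66 ± 0.21 missed the threshold (adjusted p = 0.0515). The lacrimal and submandibular changes differed by -1.47 ± 0.30 (adjusted p = 0.00191). Cpd, a carboxypeptidase of the trans-Golgi network, fell in the lacrimal gland by 0.63 (1.05, 2.07 and 2.07 with testosterone, against 2.73, 2.58 and 2.66 with placebo, adjusted p = 0.0147), and by 0.33 without testosterone pool A. Its call ended in a fit to lacrimal arrays alone (adjusted p = 0.0782). Among the 3 tested convertases, Furin fell and Pcsk7 rose in the lacrimal gland, against the same shares of all probes. Pcsk1, which cleaves prohormones in secretory granules, was not called in any gland (lacrimal change 0.21 ± 0.18). Pcsk7 rose in the lacrimal gland by 0.52 ± 0.17 (adjusted p = 0.0306), a call that ended without placebo pool B or C or testosterone pool A (adjusted p up to 0.131).

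Dpp4, the cell surface dipeptidyl peptidase CD26, rose in the lacrimal gland and read 11.01, 12.96 and 12.996 with testosterone, against 8.70, 8.92 and 5.18 with placebo (change 0.72 ± 0.17, adjusted p = 0.00507). Among membrane metalloproteases, Adam15 rose in the submandibular gland by 0.91 ± 0.20 (1.62 ± 0.382 with testosterone and 0.776 ± 0.197 with placebo, SD, n = 3 each, adjusted p = 0.00508, and 0.078 in a fit to submandibular arrays alone). Adam17, the tumour necrosis factor sheddase, rose in the lacrimal gland by 0.58 ± 0.21 (adjusted p = 0.0478). Its call ended on leaving out any lacrimal pool but testosterone A (adjusted p up to 0.232). Adamts10, a matrix-bound metalloprotease, fell there by 0.48 (adjusted p = 0.0273), and the call ended without placebo pool C or testosterone pool B or C (adjusted p up to 0.121). The plasminogen activators Plat and Plau were not called in any gland, with changes of -0.30 to 0.00 on the log2 scale.

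Of the cleavage stimulation factor subunits, Cstf2 had the largest lacrimal rise of all 82 probes. It read 1.996, 1.93 and 2.88 with testosterone, against 0.289, 0.317 and 0.470 with placebo (change 2.19 ± 0.21, adjusted p = 4.85e-07), and it was not called in the other glands. Its paralog Cstf2t fell in the lacrimal gland by 0.46 (adjusted p = 0.0124), with an adjusted p of 0.0637 without testosterone pool C. Cstf1 was not called. Without these 3 probes the lacrimal count was 24.

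Other cells' markers also moved in the lacrimal pools, and their part in the members' changes was not tested. Markers of dividing cells rose for 14 of 15 probes (sums of 74.7 to 104 with testosterone and 21.6 to 23.3 with placebo), and 5 of 7 smooth muscle and myoepithelial markers fell (11.4 to 13.5 and 24.3 to 28.2). Of 8 lacrimal secretion markers 4 fell (951 to 1401 and 1731 to 1773), and 3 did under quantile normalization. None of these markers averaged under 0.174 in lacrimal pools, a level below the 10th percentile of those arrays (0.211 to 0.316). With the 6 meibomian arrays left out of the fit, 16 of the 26 lacrimal calls remained, and those of Adam17, Adamts10, Cpd, Ctsa, Ctsz, Klk6, Pcsk7, Serpinb2, Serping1 and Slpi did not.

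Other protease systems gave calls in the same 2 glands and none in the meibomian gland. The counts below stand against 13.3% of all probes called higher and 14.8% lower in lacrimal glands, and 8.54% and 5.25% in submandibular glands, and lists of this size are described by their genes only. Of 7 tested matrix metalloproteinases and their inhibitors, 3 fell in the lacrimal gland and 2 rose in the submandibular gland. Timp3, a matrix-bound inhibitor, fell by 0.74 in the first (1.20 ± 0.136 with testosterone and 2.11 ± 0.113 with placebo) and rose by 1.49 ± 0.11 in the second (11.9 ± 1.35 and 4.10 ± 0.164). The stromelysin Mmp3 fell by 0.96 and the membrane-bound Mmp14 by 0.56 in the lacrimal gland, and the gelatinase Mmp2 rose by 0.62 ± 0.19 in the submandibular gland. Of 14 tested coagulation and complement genes, 2 rose and 2 fell in lacrimal glands. The thrombin receptor F2rl3 (19.4 ± 2.21 with testosterone and 0.555 ± 0.0596 with placebo, change 4.75 ± 0.13) and coagulation factor F12 (23.7 ± 1.01 and 3.63 ± 2.44, change 2.995 ± 0.42) rose. The anticoagulant genes Proc and Pros1 fell there by 0.75 and 0.39, and the Pros1 call ended with arrays at a common median. In submandibular glands F3 (tissue factor) rose by 1.29 ± 0.23 and Anxa2, a plasminogen receptor, by 1.18 ± 0.12.

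Of 13 tested aminopeptidases and other cell surface peptidases, 1 rose and 4 fell in lacrimal glands and 1 rose in submandibular glands. Lap3, a cytosolic leucine aminopeptidase, read 7.64 ± 0.739 with testosterone and 28.5 ± 1.10 with placebo (change -1.88 ± 0.10) in the lacrimal gland. Fap, a fibroblast relative of Dpp4, rose there by 1.96 ± 0.18, and Pepd, which splits proline dipeptides, rose in the submandibular gland by 0.42 ± 0.12. Of 10 tested mast cell proteases, granulocyte proteases and granzymes, which lymphocytes make, 3 rose and 1 fell in lacrimal glands. The granzymes Gzmb and Gzmc rose by 1.60 ± 0.16 and 0.68 ± 0.15, and the mast cell protease Mcpt1 rose by 0.47 ± 0.13. The granzyme Gzma fell by 0.41, and no other mast cell or granulocyte protease was called. The pancreatic-type list holds 13 tested genes, among them the members Cela1, Cela2a and Cela3b, and not all encode proteases or enzymes. In lacrimal glands 2 rose (the amylase Amy2a5, and Reg2) and 2 fell (the lipase relative Pnliprp1, and Ctrb1). In submandibular glands 1 rose (Pnliprp2) and 2 fell (Clps and Ctrb1). Of these called genes only Ctrb1 encodes a protease. The chymotrypsinogen gene Ctrb1 fell in both glands, by 1.65 and 1.91.

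Testosterone changed no tested member past the threshold in the meibomian gland, against 0.59% of all probes (44 of 7463, 0.469% higher and 0.121% lower). The lowest adjusted p was 0.205, for Prss16, which read 0.804, 0.847 and 0.803 with testosterone, against 0.571, 0.600 and 0.622 with placebo. In limma 8 members had an unadjusted p under 0.05. Pools did not overlap for 18 members that lay higher with testosterone (22.0%) and 7 that lay lower (8.54%), against 24.1% and 11.8% of all probes. Among them were Ctsb (14.3, 13.4 and 11.4 with testosterone, against 9.34, 8.88 and 9.28 with placebo), Ctsl (143, 111 and 104, against 85.2, 84.6 and 82.6) and Cst3 (161, 133 and 111, against 98.4, 100 and 97.1). For all 3, testosterone pool A was the highest, and that array also had the highest maximum of the 6 meibomian arrays, 219.1. In a fit with array weights 20 members were called, and in a fit to the meibomian arrays alone 2 were called. The shares of all probes called in these fits are not given here, so the counts are not read as a trait of the members.

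The testosterone effect differed between glands by an F test for 26 of 82 members (31.7%), against 27.7% of all probes. Spint1, Serpinb1a, Cstf2, Ctsh, Serpinb1b, Furin, Serpina1d, Wfdc18, Ctsb and Prss12 had the lowest p, with adjusted values of 1.29e-05 to 0.00191. Between lacrimal and submandibular glands alone, 23 members differed (28%, against 24% of all probes), 7 of them with the higher change in lacrimal glands (8.54%, against 10.3%) and 16 in submandibular glands (19.5%, against 13.8%). Between lacrimal and meibomian glands 11 differed (13.4%, against 17.6%), 4 with the higher change in lacrimal glands (4.88%, against 6.99%) and 7 in meibomian glands (8.54%, against 10.6%). Between meibomian and submandibular glands 8 differed (9.76%, against 7.4%), all with the higher change in submandibular glands (3.99% of all probes, and 3.4% had it in meibomian glands).

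Members differed between placebo glands about as often as other probes. In placebo glands 61 of 82 members differed between lacrimal and meibomian glands (74.4%, against 67.9% of all probes), 58 between meibomian and submandibular glands (70.7%, against 66.6%) and 38 between lacrimal and submandibular glands (46.3%, against 44%). Of the first, 26 were higher in lacrimal (31.7%, against 38.7%) and 35 in meibomian glands (42.7%, against 29.2%). Of the second, 35 were higher in meibomian (42.7%, against 30.6%) and 23 in submandibular glands (28%, against 36%). Of the last, 23 were higher in lacrimal (28%, against 26.2%) and 15 in submandibular glands (18.3%, against 17.8%). Members called higher in 1 gland than in both others numbered 15 in lacrimal (18.3%, against 18% of all probes), 26 in meibomian (31.7%, against 22.6%) and 7 in submandibular glands (8.54%, against 9.59%).

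Several members high in the meibomian gland were dim in the others and were tested because of their meibomian level: Stfa3, Klk7, Klk8, Serpinb2, Klk6 and Csta2. Likewise Adam5 was tested because of its lacrimal and Tmprss2 because of its submandibular level. Their distance from the other glands is a description. Stfa3 read 34.4, 26.6 and 35.6 in placebo meibomian pools, against 0.205 to 0.336 in placebo lacrimal and 0.266 to 0.398 in placebo submandibular pools. The kallikreins of the shedding skin surface showed the same sorting. Klk6 averaged 20.8 ± 2.09 in meibomian, against 0.475 ± 0.0934 in lacrimal and 0.311 ± 0.130 in submandibular glands (SD, n = 3 each), and Klk7, which cleaves corneodesmosomes, averaged 20.2 ± 2.71, against 0.543 ± 0.206 and 0.237 ± 0.0465. Klk8 averaged 8.37 ± 1.22, against 0.414 ± 0.106 and 0.413 ± 0.0628. Serpinb3a, a squamous epithelial serpin, Serpinb2, Slpi and the epidermal stefin Csta2 were also highest there. Cpe averaged 59.4 ± 4.30 in meibomian, against 1.06 ± 0.108 in lacrimal and 2.56 ± 0.370 in submandibular glands. Of 12 tested cathepsins, 6 were called highest in meibomian glands, where 22.6% of all probes were. Among the 6 were Ctsb (9.17 ± 0.253, against 3.22 ± 0.0865 in lacrimal and 2.31 ± 0.584 in submandibular glands) and Ctsd (68.2 ± 2.599, against 29.8 ± 2.81 and 30.8 ± 1.14). Of 14 keratinocyte markers, which include Klk6, Klk7 and Klk8, 13 were called highest in placebo meibomian glands (22.6% of all probes were). Krt1 and Sprr1a averaged under 0.174 in placebo submandibular glands. The part of skin in these levels was not tested.

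The lacrimal gland was highest for Furin (17.2 ± 3.95, against 4.26 ± 0.282 in meibomian and 1.48 ± 0.18 in submandibular glands), for Cpd (2.66 ± 0.0773, against 0.412 ± 0.031 and 1.23 ± 0.0276) and for Klk11 (9.66 ± 2.19, against 2.92 ± 0.347 and 4.77 ± 0.524). Adam5, known from testis, averaged 2.63 ± 0.0958 there, against 0.0139 ± 0.0217 in meibomian and 0.269 ± 0.0279 in submandibular glands. The submandibular gland was highest for Wfdc15b (57.6 ± 7.20, against 10.7 ± 1.66 in lacrimal and 2.28 ± 0.119 in meibomian glands), Serpinb6b (11.4 ± 0.677, against 0.798 ± 0.174 and 1.56 ± 0.149), Tmprss2 (2.51 ± 0.192, against 0.483 ± 0.0899 and 0.430 ± 0.0968) and Serpinb9 (3.37 ± 0.982, against 0.871 ± 0.126 and 0.562 ± 0.0535). Serpinb1a and Serpinb1b separated the lacrimal gland from both others, at 4.24 and 3.87 log2 units below submandibular placebo glands. Between meibomian and submandibular glands Serpinb1a differed by 0.56 ± 0.19 (adjusted p = 0.016) and Serpinb1b by 0.05 ± 0.19 (adjusted p = 0.82).

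**Figure D4:**
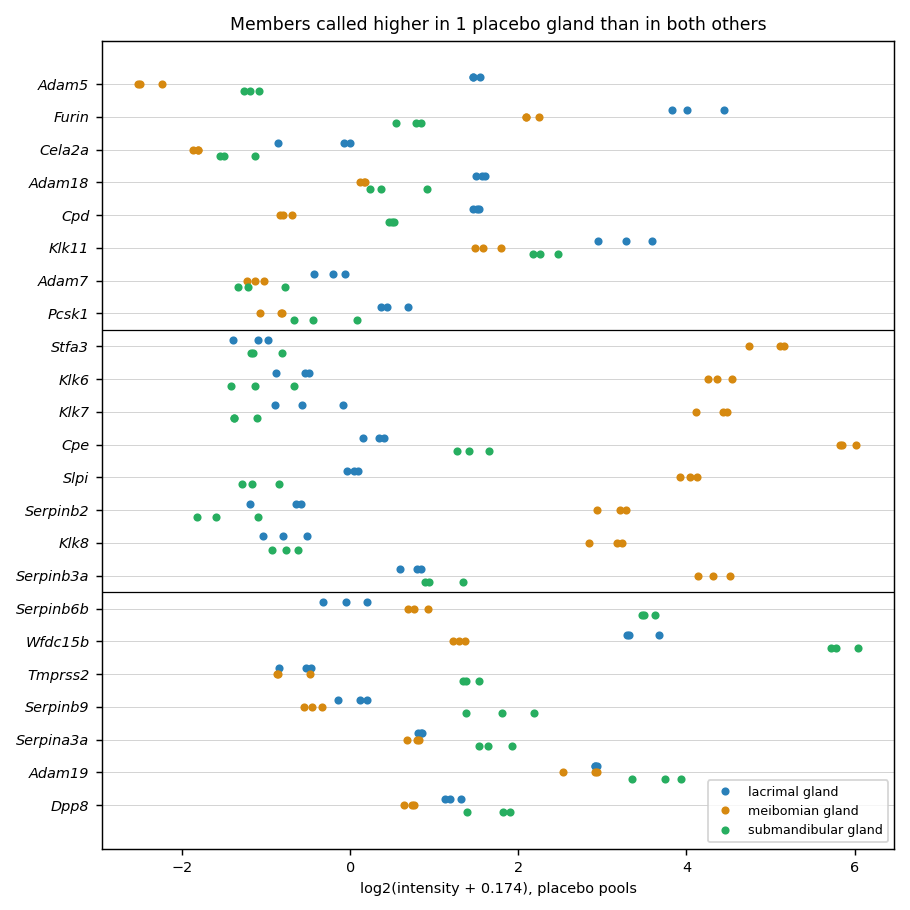
Level of members in placebo pools on log2(intensity + 0.174), coloured by gland, for up to 8 members called highest in each gland (lacrimal at the top, meibomian in the middle, submandibular at the bottom); levels of different genes are not comparable. In the meibomian block Stfa3 lies at 32.2 ± 4.84 against 0.278 ± 0.0664 in lacrimal and 0.313 ± 0.0743 in submandibular glands.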

How the data were processed

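Total RNA of 18 gland pools was measured on 1-colour arrays, 3 per group. The authors deposited intensity values, 1 per probe and array, whose medians lie near 1 on every array. The array type, the background step and the scaling are not given in the sources used here. Probe genes came from GEO's platform annotation (8983 probes with 1 gene symbol, 1 with several, 1516 unnamed), and RefSeq changed 0 symbols. The members and gene lists were chosen with earlier results of these data known.

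The code -1 was taken as no value, other negative values as 0, and log2(intensity + 0.174) was fitted, 0.174 being the 10th percentile of positive values. Probes entered with 2 or more values per group and with 3 or more arrays above their array's 40th percentile: 7463 of 10500 (146 left out for missing values, 2891 dim). limma 3.58.1 in R 4.3.3 fitted all 6 groups together (12 residual degrees of freedom, trended variance) with Benjamini-Hochberg adjustment at 0.05 over all 7463 probes. The test was tried on simulated data drawn with 1 spread per probe for all groups and without outlying pools. That trial does not cover the unequal spread or the discordant single pools of these data. With 3 pools per group their number limits the precision. The p-values measure the spread between pools, taken as 1 value per probe for all 6 groups.

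Named members were the 10 largest called rises and falls per gland, up to 4 called members per family (where none was called, the 2 brightest), the 10 with the lowest p for a difference between glands, those called in 2 glands, the 8 members per gland most above both other placebo glands, and up to 3 called genes per list and gland. Pool letters were not taken as pairs. Within a gland, correlations between testosterone and placebo pools of the same letter ran from -0.102 to 0.134. Those pools held mice of different treatment arms, so the values cannot show whether pools of different glands shared mice. Such sharing was not checked. The F test, the differences between glands and the placebo comparisons of glands treated all pools as independent. Alternatives covered the offset, dim filter, normalisation, variance model, fits per gland and single pools left out. Sequences are RefSeq's (GRCm38.p6). Figures were drawn with matplotlib 3.10.9.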

Additional observations from a re-analysis of the deposited data

Results flagged for a closer look

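The testosterone effect of 26 members differed between glands by the moderated F test at an adjusted p under 0.05 (limma), and for each the pair of glands with the largest difference of the log2 change is given. For lacrimal minus submandibular the change was lower in the lacrimal gland with differences of -1.36 for Spint1, -2.28 for Serpinb1a, -1.78 for Ctsh, -1.90 for Serpinb1b, -2.55 for Furin, -1.34 for Wfdc18 and -1.27 for Ctsb. The same held with -1.63 for Prss12, -1.47 for Cpe, -0.86 for Ctsd, -1.23 for Serpinf1, -1.08 for Serping1, -1.20 for Serpinb2 and -0.59 for Serpina3a. Serpinb2 was dim in both of these glands and was tested because of its meibomian level, so its difference is a description. The change was higher in the lacrimal gland by 2.24 for Cstf2, 0.98 for Klk11, 0.73 for Prss16, 0.86 for Dpp4 and 0.63 for Prss29. For lacrimal minus meibomian the differences were 2.07 for Serpinb6b, -1.72 for Wfdc15b, 0.92 for Serpinb8, -0.74 for Adamts10 and -0.58 for Ctsz. For meibomian minus submandibular they were -2.65 for Serpina1d and -1.03 for Adam15. Single outlying pools were not tested in groups of 3 pools.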

How the results depend on the processing

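Of 41 calls of a member in a gland, 19 were kept under every alternative that refitted the values or tightened the adjusted p. All 41 kept their direction, which says little, since the alternatives refitted the same arrays or most of them. The counts below are of members only. The shares of all probes called under these settings are not given, so a moved count is not read as particular to the members. In the lacrimal gland the count of 26 became 15 at an adjusted p of 0.01, 7 with a fold of at least 2 and 16 without the meibomian arrays. It ran from 18 to 25 with 1 pool left out. In the submandibular gland the count of 15 became 5 with a fold of at least 2 and 7 in a fit to its arrays alone, and ran from 13 to 16 with 1 pool left out. Without both submandibular pools C it was 11, and with discordant single values left out it was 20 (30 in lacrimal glands). The meibomian count of 0 became 20 with array weights and 2 in a fit to its arrays alone. The 26 differences between glands became 15 at an adjusted p of 0.01. At baseline, lacrimal against submandibular placebo glands gave 19 members with a fold of at least 2, lacrimal against meibomian placebo glands 108 without the dim filter, and meibomian against submandibular placebo glands 98 without that filter and 38 with a fold of at least 2. More probes are tested without the filter, so the counts of 108 and 98 stand against more tested members than the main counts. The cause of the other shifts was not tested. Leaving out values or arrays (discordant values, pools C, meibomian arrays) and the Cstf probes was chosen after seeing the data. With the pool letter as a replicate block the counts were 24, 0 and 15 in lacrimal, meibomian and submandibular glands and 23 for the difference between glands. Dim probes limit what could be seen for 52 members.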
